A study of Mus musculus with 28 samples.

Results

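The comparison described here set spleen dendritic cells of NOX2 knockout mice against those of wild-type mice, both with angiotensin II (Ang II). It used 8 of the 28 arrays of the series, chosen by their labels: 4 from the knockout, titled GP91 Phox, and 4 from wild-type C57BL6/J mice, without any other agent. Each array held biotin-labelled cRNA from 1 biological replicate, a primary dendritic cell preparation from the spleen of animals 3 months old, with RNA extracted by Trizol. Titles of the knockout arrays wrote Ang I and their descriptions Ang II, which was followed. The knockout allele, its strain background, the dose and duration of Ang II and the gate used to collect the cells are not given in the labels used here. The design text described treatment of isolated cells and the title spoke of hypertension, so whether animals or cells received Ang II was not settled. A genotype comparison with vehicle, 3 knockout against 7 wild-type arrays, used other arrays of the series and served only to show where the Ang II comparison differed. Of 19938 genes with a probe set of their own, 10452 passed the requirement of a log2 value above 5 on at least 3 arrays and were tested.

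Cybb, on the X chromosome, encodes NOX2, the membrane-bound catalytic part of the NADPH oxidase of phagocytes. With its partner p22phox, encoded by Cyba, it moves electrons from NADPH across the membrane to oxygen, making superoxide in phagosomes and endosomes or at the cell surface, once the cytosolic subunits and a Rac GTPase have joined it. In dendritic cells the oxidase is known for holding the pH of antigen-containing compartments up, which slows proteolysis and preserves peptides for cross-presentation. Ang II, the effector peptide of the renin-angiotensin system, is a known activator of NADPH oxidases in several cell types.

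Promoter sequences are shown for the genes whose difference passed the test, so that each value below can be tied to its locus. They are the 250 bases before the annotated start site, from RefSeq on GRCm38.p6, written 5′ to 3′ on the strand of the gene: Cybb at chrX:9469325-9469574 on the minus strand, Stx8 at chr11:67966208-67966457, Coch at chr12:51593091-51593340 and Apobr at chr7:126584758-126585007, these 3 on the plus strand. The table used here matched 4 of the 5 genes, and Clu is named only. Capitals mark matches to 4 motifs searched on both strands: the TATA box (letters TATAAA), the CCAAT box, the GC box (letters GGGCGG) and an Ets-family motif of myeloid genes (letters GAGGAAG).
Cybb: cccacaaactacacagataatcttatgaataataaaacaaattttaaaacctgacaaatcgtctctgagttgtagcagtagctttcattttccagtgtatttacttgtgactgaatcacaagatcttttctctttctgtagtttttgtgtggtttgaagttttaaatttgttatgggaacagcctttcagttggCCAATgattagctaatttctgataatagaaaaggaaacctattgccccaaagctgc
Stx8: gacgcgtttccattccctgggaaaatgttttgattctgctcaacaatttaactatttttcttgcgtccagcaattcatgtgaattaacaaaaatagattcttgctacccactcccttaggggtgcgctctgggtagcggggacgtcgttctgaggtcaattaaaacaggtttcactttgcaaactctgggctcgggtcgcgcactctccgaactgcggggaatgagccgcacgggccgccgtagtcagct
Coch: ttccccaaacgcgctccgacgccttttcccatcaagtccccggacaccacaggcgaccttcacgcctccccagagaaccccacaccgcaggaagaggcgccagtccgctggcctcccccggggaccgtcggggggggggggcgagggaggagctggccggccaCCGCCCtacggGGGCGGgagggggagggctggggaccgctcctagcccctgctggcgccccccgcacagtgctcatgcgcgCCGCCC
Apobr: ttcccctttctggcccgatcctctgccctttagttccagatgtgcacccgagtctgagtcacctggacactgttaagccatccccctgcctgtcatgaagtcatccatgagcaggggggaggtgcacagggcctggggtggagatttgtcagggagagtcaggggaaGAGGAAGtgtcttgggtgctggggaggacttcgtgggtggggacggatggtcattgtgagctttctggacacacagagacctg
The Cybb window held 1 CCAAT, 56 bases before the start. Coch held the GC box 3 times, of which 2 were on the opposite strand. Apobr held 1 Ets-family motif, 83 bases before the start, and none of the 4 motifs was in the Stx8 window. Over 32851 RefSeq promoters cut to the same length, the CCAAT box was present in 33.9%, the GC box in 32.7%, the TATA box in 12.4% and the Ets-family motif in 10.6%; no match overlapped another in the windows shown. A match describes the letters only.

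Over the 8 arrays the spread of values was similar, with interquartile ranges of 2.49 to 2.56 in the knockout and 2.48 to 2.82 in wild type. Signals of 998 control probe sets, which name no gene, divided the series into array sets along their first principal component (30.2% of variance), at cut points chosen after the data were seen. All 4 knockout arrays (8.18 to 14.39) and wild-type replicates 1 and 2 (14.16 and 13.83) lay in the same set, while wild-type replicates 3 and 4 (-5.07 and -1.47) lay in another. The labels name no batch. Because this division moves with genotype, differences against wild-type replicates 1 and 2 alone, called the within-set difference below, are given beside results. Markers of the labelled cell type were present: Itgax ranged from 7.96 to 8.44, Flt3 from 7.75 to 8.46, Zbtb46 from 5.20 to 6.07 and Cd74 from 10.87 to 11.57 over the 8 arrays. Markers of other cells were present as well, among them Ms4a1 of B cells (7.42 to 9.89), S100a8 of neutrophils (9.08 to 12.49) and Slc4a1 of red cells (6.36 to 9.85). Knockout replicate 4 held the highest S100a8 and Slc4a1 and the lowest Ms4a1 of the 8, and is left out as an alternative where a list median rests on it. Values below 5 are dim: where 1 group mean of a gene given by array was below 5, a bound with 5 in its place follows the measured difference. Other differences are as measured, and for Bub1, Cenpe, Dcn, Ebp, Eng, Gata2, Ltb4r1, Mfsd6l, Ndufb3, Noxo1, Prdm1, Rnf222, Srxn1, Tlr8 and Tmem220 both group means were below 5. In bulk RNA, fewer cells of a type and less RNA per cell cannot be told apart.

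With Ang II, 5 of 10452 genes (0.0478%) differed between knockout and wild type at an adjusted p below 0.05 in limma's moderated test (Benjamini-Hochberg over all tested genes, two-sided). Stx8, Coch, Cybb and Clu fell and Apobr rose. All 5 had every knockout array on the same side of every wild-type array. Such a separation was seen in 175 genes with the knockout above (1.67%) and 203 with it below (1.94%). Without adjustment, p was below 0.05 for 320 genes higher in the knockout (3.06%) and 394 lower (3.77%), the background for the counts in gene lists below. Within the set these counts were 275 higher and 192 lower of the 10452 genes, and without knockout replicate 4 they were 269 and 371. As background for counts of signs, 5814 of all tested genes (55.6%) had a difference below 0, and 4828 (46.2%) had one within the set. Without knockout replicate 4, 5793 had one. The number called moved with the fit: it was 40 (20 higher and 20 lower) with the array set as a block and 16 (1 higher and 15 lower) within the set. Under quantile normalization 13 were called, 6 of them higher. Leaving out single arrays left 1 to 3 called, and Stx8 was called in 8 of 8 such fits.

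**Figure D1:**
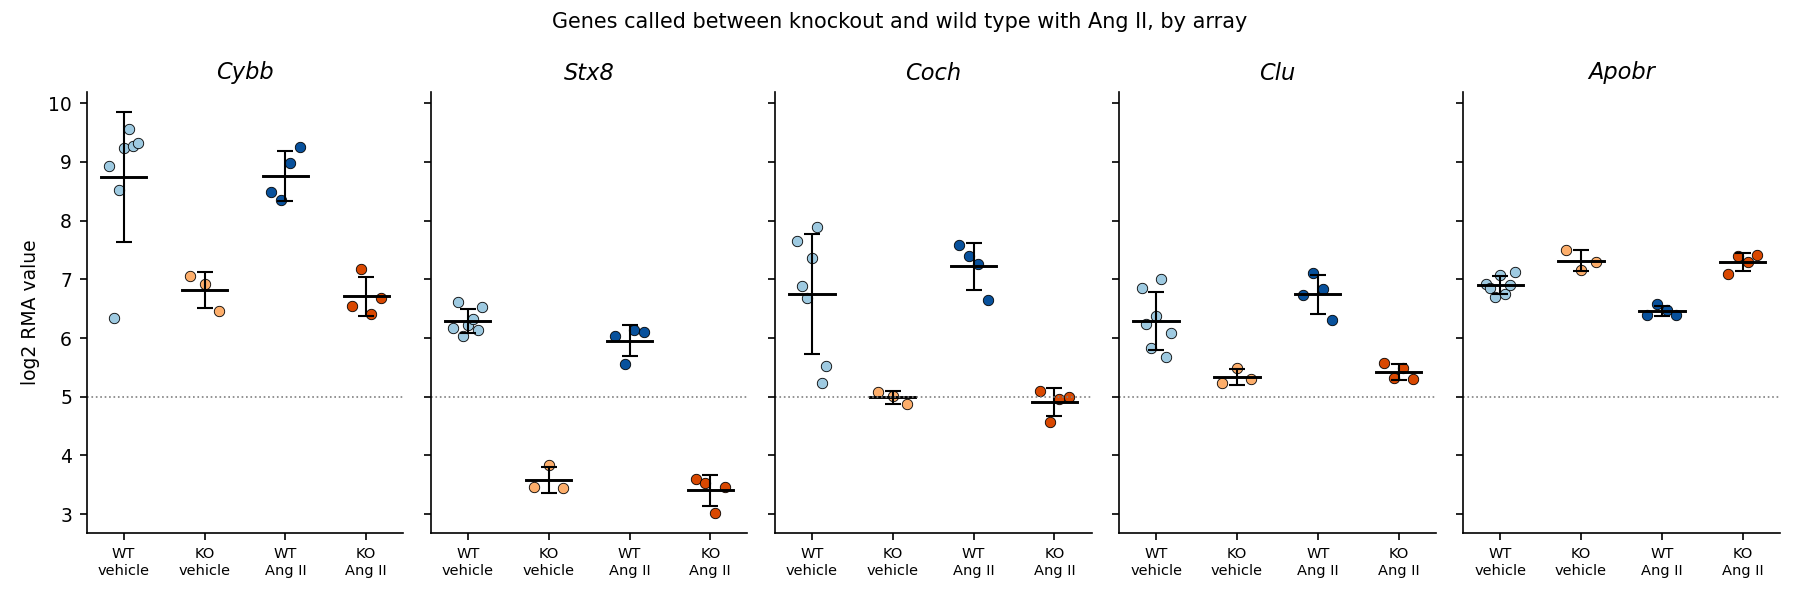
Log2 RMA values of the 5 called genes (vertical axis) on each array of 4 groups: WT, wild type, and KO, knockout, each with vehicle (7 and 3 arrays) or Ang II (4 and 4 arrays). Points are arrays, bars the mean with its SD, and the dotted line the threshold of 5. With Ang II no knockout point overlaps a wild-type point, and the wild-type vehicle array of low Cybb (6.34) lies below the lowest Ang II knockout value of Cybb (6.41) but with the wild-type arrays for Stx8 (6.61) and Coch (6.88).

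Cybb, the targeted gene, was read first. Its values were 6.55, 7.18, 6.41 and 6.69 on the knockout arrays with Ang II and 8.48, 8.35, 8.99 and 9.26 on the wild-type arrays with Ang II. Knockout arrays were all lower, by more than 1 unit between the nearest arrays, so these 8 labels fit the gene they name. Mean values were 6.71 ± 0.33 (SD, n = 4) and 8.77 ± 0.43 (SD, n = 4), a difference of -2.06 (SE 0.41, limma adjusted p = 0.0452), or 4.17-fold lower. The remaining signal was above 5 on every knockout array, and which part of the gene its single probe set (10603551) covers relative to the deleted part is not known here. With vehicle, knockout values were 7.06, 6.93 and 6.46, while wild-type arrays ran from 8.51 to 9.57 except for the array labelled wild-type vehicle replicate 2, at 6.34. That array had wild-type values of Stx8 (6.61) and Coch (6.88). It also stood apart from the series, with an interquartile range of 1.92 against 2.43 to 3.44 on the other arrays, a mean correlation with other arrays of 0.852 against 0.927 to 0.956, and the highest control component (25.95). It enters the Ang II fit only through the shared estimate of spread: without it, Cybb's difference was still -2.06 and its adjusted p 2.88e-06, and 13 genes were called in place of 5. Within the set Cybb differed by -1.71, with an adjusted p of 0.556 with that array in the fit and 0.00300 without it. Its call was also lost in each fit that left out 1 of the 8 arrays (adjusted p 0.0625 to 0.152). All of those fits kept wild-type vehicle replicate 2. In the fit of the 8 compared arrays alone, Cybb was called (limma adjusted p = 0.00175).

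No other part of the oxidase was called. Cyba, the partner that stabilises NOX2 in the membrane, measured 8.68, 7.83, 8.52 and 8.82 in the knockout and 7.81, 8.38, 8.68 and 8.17 in wild type, overlapping values with a difference of 0.20 (95% interval -0.50 to 0.90). Ncf1, which encodes the organiser p47phox, measured 7.80, 8.11, 7.65 and 7.76 against 7.67, 7.88, 7.76 and 7.72, a difference of 0.08 (95% interval -0.33 to 0.48). The regulator p40phox gene Ncf4 differed by -0.17. Among the GTPases, Rac1 differed by 0.00, Rac2 by -0.33 and Rap1a by 0.09. Cybc1, a chaperone needed for the NOX2 complex, differed by -0.01, the proton channel gene Hvcn1 by -0.10 and the organiser homologue Noxo1 by 0.14. Of 10 tested genes of the list, Cybb alone was called, and the median difference was -0.01 (0.10 within the set) against -0.03 over all tested genes (0.02 within the set). The other catalytic subunits had no value that passed: Nox1, Nox4, Duox1, Duox2 and the activator Noxa1 reached at most 3.73, 3.44, 4.13, 4.03 and 4.58 on any of the 28 arrays.

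**Figure D2:**
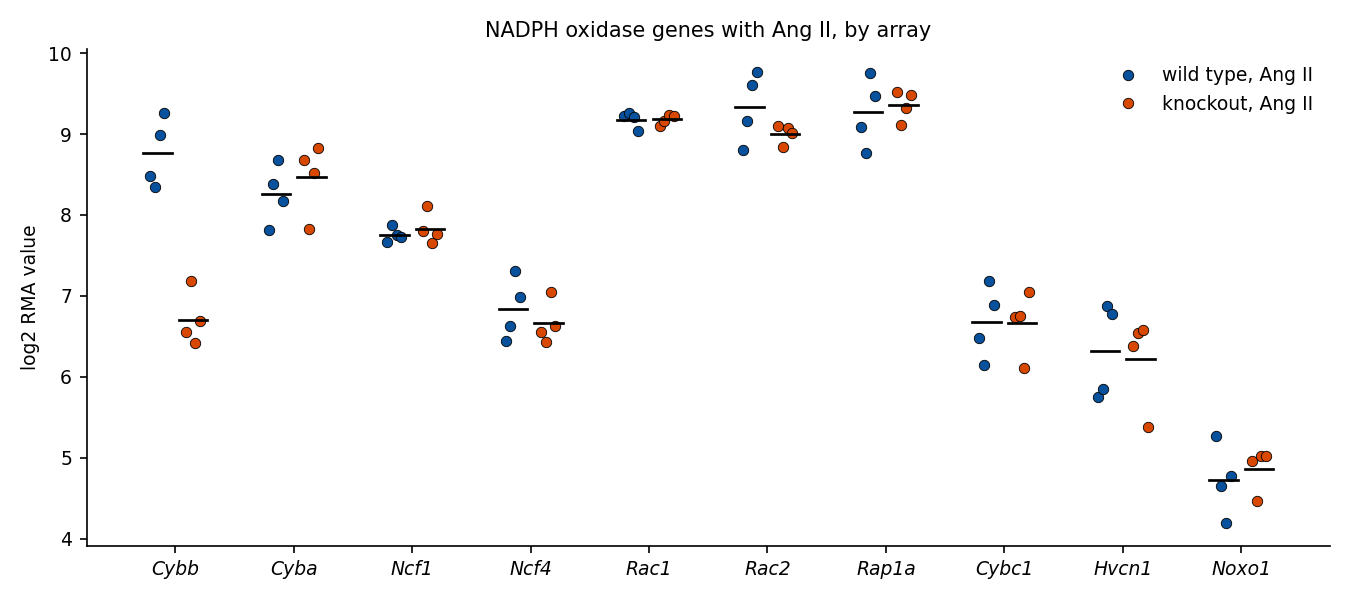
Log2 RMA values (vertical axis) of the 10 tested NADPH oxidase genes on the 4 wild-type (blue) and 4 knockout (orange) arrays with Ang II. Points are arrays and lines group means; heights are not comparable between genes. Cybb is separated by genotype, and the points of the 9 others overlap.

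Stx8 had the smallest p of all tested genes. It encodes syntaxin 8, a SNARE that takes part in fusion of late endosomes and lysosomes. Its values were 3.60, 3.52, 3.02 and 3.46 in the knockout and 6.04, 5.56, 6.13 and 6.10 in wild type. The knockout arrays lay below the threshold of 5 and the wild-type arrays above it. The fitted difference was -2.55 (SE 0.16, limma adjusted p = 9.64e-12). Since the knockout mean of 3.40 ± 0.26 (SD, n = 4) is below 5, putting 5 in its place gives at least 1.94-fold lower, beside a measured ratio of 5.88. A difference of -2.71 was measured with vehicle (adjusted p = 1.02e-12), on knockout values of 3.44 to 3.84 and wild-type values of 6.04 to 6.61. The difference between both genotype effects was 0.16 (95% interval -0.31 to 0.63). Within the set Stx8 differed by -2.40 (adjusted p = 0.000391).

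None of the other 23 endosomal SNARE genes was called. Vamp7, a vesicle SNARE of late endosomes and secretory lysosomes, measured 5.23, 5.19, 5.04 and 5.03 in the knockout and 5.31, 5.40, 6.50 and 6.10 in wild type. Although these groups do not overlap, wild-type replicates 1 and 2 were within 0.4 of the knockout, and the difference of -0.70 (adjusted p = 0.521) was -0.23 within the set. Stx6, of the trans-Golgi network, differed by 0.45 and Stx12 by -0.24. The known complex partners of syntaxin 8 were near 0, with Stx7 at -0.14, Vti1b at -0.16 and Vamp8 at 0.10. Plasma membrane and Golgi syntaxins differed by 0.26 (Stx3), 0.13 (Stx4a), 0.22 (Stx16) and -0.06 (Stx11). The other SNAREs and their disassembly factors differed by -0.24 (Vamp4), -0.12 (Vamp3), 0.15 (Vti1a), 0.06 (Snap23), -0.12 (Nsf), 0.06 (Napa) and 0.14 (Stxbp2, a SNARE regulator). Tethering subunits of the HOPS complex and its relatives ranged from -0.12 to 0.08, with Vps41 at -0.12, Vps16 at -0.09, Vps39 at -0.07, Vps33a at 0.01, Vps18 at 0.06 and Vps11 at 0.08. Over 24 genes the median was -0.02.

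Tested genes on either side of both loci were compared, although most did not lie next to them. The 5 nearest tested genes on either side of Cybb, on chromosome X, differed by -0.39 to 0.32, at the extremes Dynlt3, a dynein light chain, and the noncoding Rbm3os. The others were Mid1ip1 (0.14), Bcor (-0.13), Atp6ap2 (-0.26), Ebp (0.02), Ftsj1 (0.17), Tbc1d25 (0.06) and the unnamed transcripts B630019K06Rik (0.04) and 1810030O07Rik (0.15). Beside Stx8, on chromosome 11, differences ran from -0.44 for Ndel1 to 0.43 for Rnf222. Between them lay Pik3r5 (0.37) and Pik3r6 (0.22), which encode subunits of a phosphoinositide kinase, Tmem220 (0.21), Gas7 (0.13), Adprm (0.06), Elac2 (0.02), Mfsd6l (-0.04) and Map2k4 (-0.18). None of these 20 genes was called or had an unadjusted p below 0.05. Between Cybb and these genes lay 30 to 53 RefSeq genes on 1 side and 3 to 50 on the other. For Stx8 there were 7 to 50 and 5 to 13. The genes directly beside either locus were thus not tested, and whether differences extended there cannot be told.

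Coch encodes cochlin, a secreted protein of the extracellular matrix. It measured 5.10, 4.57, 4.97 and 5.00 in the knockout and 7.58, 7.39, 7.26 and 6.65 in wild type, so that the knockout arrays sat at the threshold and the nearest wild-type array 1.5 units above. The difference was -2.31 (SE 0.41, limma adjusted p = 0.0209), at least 4.66-fold lower with 5 in place of the knockout mean of 4.91. It was -2.58 within the set and -1.76 with vehicle, where wild-type arrays ran from 5.24 to 7.90. Clu encodes clusterin, a secreted chaperone, and measured 5.58, 5.31, 5.50 and 5.30 against 6.74, 7.11, 6.83 and 6.30. Each knockout array was below each wild-type array. The difference was -1.32 (SE 0.25, limma adjusted p = 0.0334), 2.50-fold lower, with -1.50 within the set and -0.95 with vehicle. Of the 8 fits without 1 array, Coch was called without knockout replicate 1 or wild-type replicate 4 alone (adjusted p 0.0229 to 0.0898 over the 8), and Clu without wild-type replicate 4 alone (0.0249 to 0.133).

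Several genes of stromal cells and matrix ranked next without passing the test, and were chosen for display after their values were seen. Serping1, the C1 inhibitor of complement, measured 3.41, 4.46, 3.30 and 3.59 in the knockout and 5.49, 6.12, 5.94 and 4.89 in wild type (difference -1.92, adjusted p = 0.0710, and at least 0.61 lower with 5 in place of the knockout mean). Igfbp7, a secreted protein of vessels and stroma, measured 6.17, 5.55, 6.31 and 6.06 against 8.40, 7.88, 8.50 and 7.33 (difference -2.00, adjusted p = 0.113). In both, the knockout arrays were all lower, and within the set the adjusted p was 0.0213 for Serping1 and 0.00130 for Igfbp7. The matricellular Sparcl1 differed by -1.80 (adjusted p = 0.216, and 0.0357 within the set), the procollagen processing enhancer Pcolce by -1.01 and the focal adhesion adaptor Tgfb1i1 by -0.80.

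Among genes listed for spleen stroma, 12 of 20 were tested and none was called; 8 differences were below 0 and 4 above, 5 had an unadjusted p below 0.05, all lower, and the median was -0.34. Within the set 11 of 12 were below 0 at a median of -0.61, and Tcf21, Cxcl12 and Cxcl13 were called. Tcf21, a transcription factor of spleen mesenchyme, measured 4.96, 4.90, 4.65 and 4.66 in the knockout and 6.47, 6.69, 6.19 and 5.17 in wild type. No knockout value reached the lowest wild-type value, and the difference was -1.34 (adjusted p = 0.230, at least 1.13 lower by the bound), and -1.79 within the set (adjusted p = 0.0336). Cxcl12, the stromal ligand of Cxcr4, measured 4.22, 4.04, 4.44 and 4.23 against 5.83, 5.40, 5.52 and 4.99, a difference of -1.20 (adjusted p = 0.209, at least 0.43 lower by the bound), and -1.38 within the set (adjusted p = 0.0251). Cxcl13, a follicular chemokine that attracts B cells, measured 5.78, 5.31, 5.11 and 5.69 against 7.03, 7.55, 6.04 and 5.99, a difference of -1.18 (adjusted p = 0.250), and -1.82 within the set (adjusted p = 0.0251). Wild-type replicates 1 and 2 were the highest for both Tcf21 and Cxcl13, and replicate 4 the lowest for all 3 genes. Dcn differed by -0.92 and the T-zone chemokine Ccl19 by -0.91. The defining fibroblast genes Pdgfra, Pdgfrb and Col3a1 stayed below the threshold of 5 on all 28 arrays, with highest values of 4.63, 4.57 and 4.62, and Col1a1 ranged from 4.68 to 5.32 over the 8 arrays. Mean levels over the 12 genes were 4.66 to 5.04 in the knockout and 4.95 to 5.60 in wild type, which overlap.

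In the extracellular matrix list 16 of 27 genes were tested, none was called and 6 had an unadjusted p below 0.05, all lower, with 14 of 16 differences below 0 and a median of -0.28 (-0.31 within the set). The proteoglycan gene Bgn measured 5.20, 5.22, 4.50 and 4.53 in the knockout and 6.48, 6.56, 6.40 and 5.40 in wild type, a difference of -1.35 (adjusted p = 0.296, at least 1.21 lower by the bound), and -1.66 within the set (adjusted p = 0.0386). Wild-type replicate 4 was again the nearest to the knockout. Sparc, a collagen-binding glycoprotein, differed by -1.27, fibronectin (Fn1) by -1.02 and Dcn, the proteoglycan decorin, by -0.92. Mean levels of the 16 genes were 4.97 to 5.29 in the knockout and 5.38 to 5.75 in wild type, without overlap. Such a separation was not particular to matrix genes. It was also seen for chemokines and their receptors (5.99 to 6.09 against 6.22 to 6.68) and unfolded protein response genes (6.92 to 7.16 against 7.19 to 7.34). Endosomal SNAREs showed it too (6.57 to 6.64 against 6.68 to 6.76). That list includes the called Stx8 (difference -2.55), and its median difference was -0.02, so its separation is not a result apart from Stx8. The part of these stromal and matrix levels in the Coch and Clu differences was not tested.

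**Figure D3:**
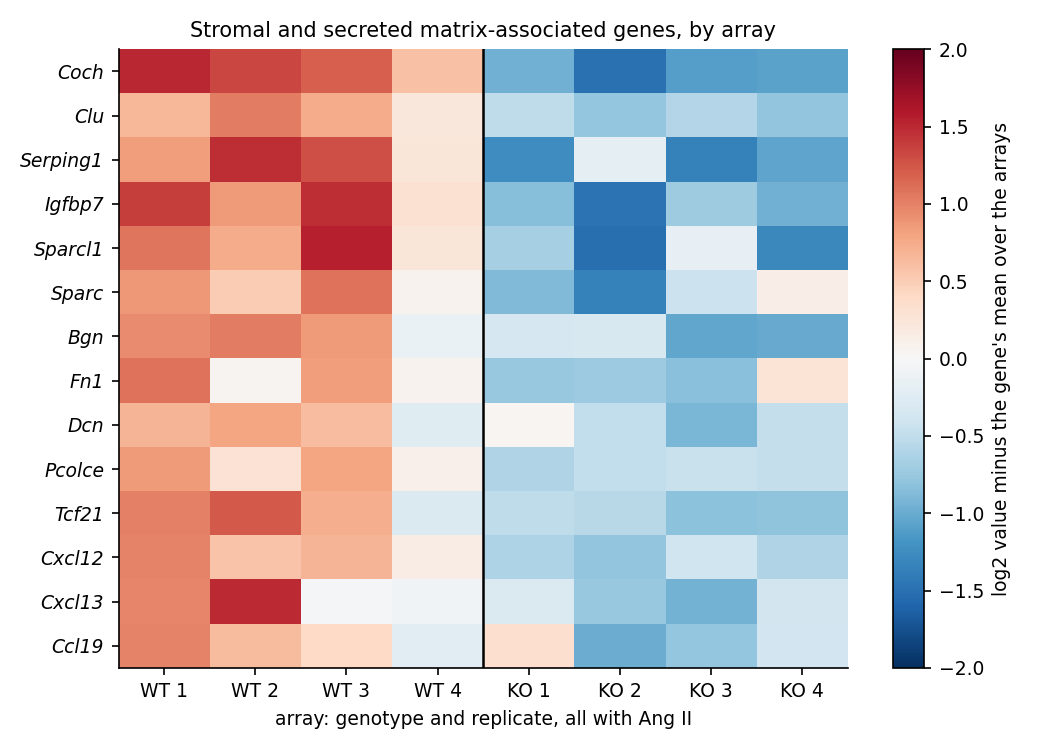
Log2 value minus the mean of the 8 arrays (colour, from -2 in blue to 2 in red) for 14 stromal, matrix and secreted-protein genes in rows, on the wild-type (WT) and knockout (KO) arrays with Ang II in columns. Genes were picked for low knockout values, so the contrast between sides is how they were chosen; within wild type, replicate 4 is the palest column, as for Tcf21 (5.17) and Bgn (5.40).

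The list of chemokines and their receptors shares Cxcl12 and Cxcl13 with the stroma list. Of 23 tested genes none was called; 9 had an unadjusted p below 0.05 on the lower side and 2 on the higher side, and the median was -0.47 (-0.23 without knockout replicate 4). Within the set the median was 0.06, with 7 genes of unadjusted p below 0.05 on the lower side, 5 on the higher side and 3 called, namely Cxcl2, Cxcl12 and Cxcl13, all lower. Cxcl9, an interferon-gamma-induced ligand of Cxcr3, measured 7.66, 7.17, 7.34 and 7.09 in the knockout and 7.70, 8.52, 8.51 and 9.01 in wild type. Wild-type replicate 1 was 0.04 above the highest knockout array, and the difference was -1.12 (adjusted p = 0.127). Cxcl2, a neutrophil attractant, measured 4.72, 4.58, 5.08 and 4.91 against 7.82, 7.17, 5.72 and 6.69. Its difference of -2.03 (adjusted p = 0.445) came with a wild-type spread of over 2 units and was at least 1.85 lower by the bound. It was -2.67 within the set (adjusted p = 0.0345), and -3.02 with vehicle.

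Apobr was the only called gene that rose. It encodes the receptor by which macrophages take up the apolipoprotein B-containing particles. Values were 7.08, 7.40, 7.30 and 7.42 in the knockout and 6.39, 6.57, 6.47 and 6.39 in wild type, a gap of 0.5 between the nearest arrays. The difference was 0.85 (SE 0.15, limma adjusted p = 0.0209), or 1.80-fold higher, and 0.82 within the set (adjusted p = 0.437). With vehicle the difference was 0.42, as wild-type arrays there ran from 6.69 to 7.12 and knockout arrays from 7.15 to 7.51. The difference between both effects was 0.43 (95% interval -0.01 to 0.87). Of the 8 fits without 1 array, Apobr was called without knockout replicate 1 alone (adjusted p 0.0289 to 0.111 over the 8).

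Higher values of small p that missed the test included genes of myeloid cells and stress, again displayed after their values were seen. Serpinb10, a serpin of myeloid cells, measured 5.32, 5.29, 4.95 and 5.39 in the knockout and 3.73, 3.19, 4.03 and 3.63 in wild type (difference 1.59, adjusted p = 0.0788, at least 0.24 higher by the bound; 1.78 and 0.0251 within the set). Fabp4, a fatty acid carrier of macrophages and endothelium, measured 6.63, 6.03, 6.64 and 6.94 against 5.48, 4.86, 4.85 and 5.25 (difference 1.45, adjusted p = 0.0788). Ddit4, a stress-induced inhibitor of mTOR signalling, measured 9.14, 9.13, 9.16 and 9.33 against wild-type values between 7.93 and 8.02 (difference 1.21, adjusted p = 0.0827). All 3 were separated by genotype, Ddit4 with under 0.3 units of spread inside either group. Without wild-type vehicle replicate 2 in the fit, Ddit4 (adjusted p = 0.0442) and Serpinb10 (0.0451) were called and Fabp4 (0.0505) was not. Naip5, the flagellin sensor of an inflammasome, measured 7.26, 7.63, 7.65 and 7.51 against 7.24, 6.36, 6.02 and 6.49; wild-type replicate 1 almost met the lowest knockout array, and the difference was 0.99 (adjusted p = 0.152). The inflammasome gene Nlrp1b differed by 0.86 (adjusted p = 0.143). The B cell and dendritic cell migration receptor Gpr183, on the opposite side, differed by -1.49 (adjusted p = 0.250).

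Interferon-stimulated genes lay mostly above 0. Of 26 tested, 17 had positive differences, 4 had an unadjusted p below 0.05, all higher, and none was called; the median was 0.20, and 0.32 within the set. Oas3, an antiviral oligoadenylate synthetase, measured 5.59, 5.37, 5.01 and 5.62 in the knockout and 4.84, 4.54, 4.43 and 4.77 in wild type, a difference of 0.75 (adjusted p = 0.217, at least 0.40 higher by the bound). Oas2, of the same family, measured 6.89, 7.30, 6.87 and 7.22 against 6.64, 6.24, 5.78 and 6.47, a difference of 0.79 (adjusted p = 0.250). Both had all knockout arrays above all wild-type arrays. Oasl2 differed by 0.62 and Ifit3, an RNA-binding antiviral protein, by 0.72.

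Antigen presentation, the main function of these cells, showed no called gene. All 11 tested genes of MHC class II presentation had negative differences (10 under quantile normalization), from -0.59 (H2-Eb2) to -0.03, none with an unadjusted p below 0.05, and the median of -0.29 was -0.09 within the set. With wild-type vehicle replicate 2 left out of the fit, 4 of the 11 had an unadjusted p below 0.05, all lower, beside 700 lower of 10452 tested genes. H2-Ab1, a class II beta chain, measured 11.09, 10.99, 11.07 and 10.93 in the knockout and 11.24, 11.19, 11.17 and 11.36 in wild type. Knockout values were the lower ones, by a difference of -0.22 (95% interval -0.52 to 0.08). The invariant chain Cd74 and the class II transactivator Ciita each differed by -0.30, and the peptide-exchange regulator subunit H2-Oa by -0.41. In the class I and cross-presentation list, 17 tested genes had a median of -0.12 (0.14 within the set) and none had an unadjusted p below 0.05. The class I genes H2-K1 and H2-D1 had no probe set of their own and were not tested, nor were H2-DMb1 and H2-DMb2 of the class II list. The peptide trimmer Erap1 differed by -0.52, the peptide editor Tapbpl by 0.25, B2m by -0.21 and the chaperone Pdia3 by -0.38. Lysosomal proteases and acidification genes had a median of 0.03 over 21 (0.14 within the set, -0.10 without knockout replicate 4), with 1 gene of unadjusted p below 0.05: the aspartic protease Ctse at -1.05, in which knockout replicate 4 (9.84) was the highest of the 8 arrays. The proton pump subunit Atp6v0d1 differed by -0.43, the cathepsin genes Ctsa by 0.24 and Ctsc by -0.41.

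Costimulatory and coinhibitory genes had a median of -0.09 over 13 (0.04 within the set, -0.17 without knockout replicate 4), and none had an unadjusted p below 0.05. Cd80 differed by -0.04 and Cd86 by -0.40, both ligands of Cd28 on T cells; within the set Cd86 differed by 0.04. Pdcd1lg2, a ligand of the inhibitory receptor Pdcd1, differed by -0.36, Icosl by -0.44, the inhibitory receptor Havcr2 by 0.37 and the maturation marker Cd83 by -0.36.

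The inflammatory cytokine and NF-kB list had a median of -0.07 over 24 genes (-0.10 within the set), none called, with 3 genes of unadjusted p below 0.05, all lower. Il1b differed by -0.28 and Tnf by -0.11. Il6 did not pass the requirement on level and reached at most 4.66 on any array. Tnfaip3, the ubiquitin-editing inhibitor of NF-kB, measured 6.63, 6.63, 6.87 and 6.83 in the knockout and 8.30, 8.23, 6.54 and 8.29 in wild type. Wild-type replicate 3 was below the knockout arrays and the other 3 were above them, and the difference was -1.10 (adjusted p = 0.442). The NF-kB subunit Rel differed by -0.82, Tnip1, a binding partner of Tnfaip3, by -0.32 and the inhibitor Nfkbie by -0.44.

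Immediate early genes followed the same arrays. Of 29 tested immediate early and heat shock genes 23 had negative differences, 4 with an unadjusted p below 0.05 and none called, at a median of -0.20 (-0.41 within the set). Atf3, a stress-induced transcription factor, measured 7.55, 7.62, 7.03 and 6.78 in the knockout and 9.55, 9.51, 5.78 and 9.23 in wild type. Wild-type replicate 3 was the lowest of all 8 and the other 3 the highest, so the difference was -1.27 (adjusted p = 0.674) over all arrays and -2.28 (adjusted p = 0.00394) within the set. Fosb, a subunit of AP-1, differed by -1.14 and, within the set, by -2.23 (adjusted p = 0.00761). The orphan nuclear receptors Nr4a3 and Nr4a2 differed by -1.15 and -1.10, and Egr1 by -0.82. Ptgs2, the inducible cyclooxygenase, differed by -1.49 (adjusted p = 0.500), the only one of 18 eicosanoid and reactive aldehyde genes with an unadjusted p below 0.05. In that list the leukotriene genes Alox5 and Alox5ap differed by 0.39 and 0.45, and Pla2g7, a lipase of oxidised phospholipids, by 0.67.

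Antioxidant genes and targets of Nrf2 had 13 differences above 0 and 16 below, a median of -0.04 and none called. The median moved to -0.18 without knockout replicate 4, with 21 of 29 below 0, and to 0.20 within the set, with 18 above 0 and Gpx3 called. Hmox1, the haem oxygenase, measured 9.85, 10.38, 9.99 and 11.36 in the knockout and 10.16, 9.53, 9.59 and 10.32 in wild type. The groups overlap, with knockout replicate 4 the highest by about 1 unit, and the difference was 0.49 (95% interval -0.23 to 1.22). Nfe2l2, which encodes Nrf2 itself, differed by 0.31. Gpx3, a secreted glutathione peroxidase, differed by -1.22 (-1.61 within the set, adjusted p = 0.0251), the glutathione reductase gene Gsr by 0.68, Srxn1 by 0.36 and the ferritin chain Fth1 by -0.26. Iron and haem genes had a median of 0.11 over 19 (0.32 within the set, 0.01 without knockout replicate 4) with no unadjusted p below 0.05, and Hp, haptoglobin, differed by 1.08 with knockout replicate 4 (8.26) the highest array. The iron regulator Hfe differed by 0.50.

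Metabolic, stress and growth lists held no called gene. Oxidative phosphorylation had 26 of 33 differences below 0 and a median of -0.17, which was 0.14 within the set and -0.29 without knockout replicate 4; Ndufb5 and Ndufb3, subunits of complex I, differed by -0.62 and -0.54. Glycolysis and hypoxia had a median of -0.07 over 21 (0.09 within the set), with the lactate exporter Slc16a3 at 0.48 and Bnip3 at -0.50. Those 21 include Pigq, a gene outside glycolysis, to which the listed Gpi1 was matched by a synonym. Unfolded protein response genes had a median of -0.14 over 19 (-0.07 within the set), with the chaperone Dnajb9 at -1.31 and the kinase Eif2ak3 at -0.49. Cell cycle genes had 20 of 27 differences above 0 and a median of 0.13, led by the mitotic genes Bub1 (0.69), Kif11 (0.55) and Cenpe (0.43). The cell cycle median was -0.09 without knockout replicate 4 and 0.23 within the set. Toll-like receptor genes had 13 of 23 differences above 0 and a median of 0.01, which was 0.25 within the set, with 21 of 23 above 0. Among them were Tlr1 at -0.81, the adaptor Tirap at 0.39, Ticam2 at 0.34 and Tlr8 at 0.47, none with an unadjusted p below 0.05.

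The renin-angiotensin list had 4 of 15 genes tested. Ace, which makes Ang II from angiotensin I and is also carried by monocytes and macrophages, measured 7.35, 7.49, 7.56 and 8.32 in the knockout and 6.86, 6.31, 5.60 and 6.13 in wild type. Every knockout array was the higher, with a difference of 1.46 (adjusted p = 0.212), 1.10 within the set and 0.83 with vehicle. Agtrap, a binding protein of the type 1 receptor, differed by -0.38, Atp6ap2, the prorenin receptor, by -0.26 and Prcp by -0.02. Agtr1a, the receptor for Ang II, reached at most 5.13 on any array and did not pass the requirement on level.

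No dendritic cell subset marker was called. The shared markers had a median of -0.22 over 15 (0.03 within the set), with Btla, an inhibitory receptor, at -0.68, Traf1 at -0.47 and Cd74 and Ciita as above. Type 1 markers had a median of -0.18 over 16 (0.12 within the set), with Cd8a at -0.54, Xcr1, the receptor of Xcl1, at -0.55, Clec9a, a receptor for dead cells, at -0.40 and Ly75 at -0.32. Type 2 markers had a median of -0.21 over 14 (-0.04 within the set). Among them Clec10a, a galactose-binding lectin, measured 4.75, 3.98, 4.37 and 4.31 in the knockout and 3.49, 2.16, 3.59 and 3.52 in wild type. All 8 values were under the threshold of 5, so no difference is given. Irf4, a transcription factor of type 2 cells, differed by -0.80, the integrin Itgam by 0.58 and Dtx1 by -0.39. Plasmacytoid markers had a median of 0.25 over 13 (0.58 within the set), 3 of them with an unadjusted p below 0.05: Cd300c (0.77), Cox6a2 (0.84) and Plac8 (0.58). Siglech, which defines that subset, differed by 0.44.

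**Figure D4:**
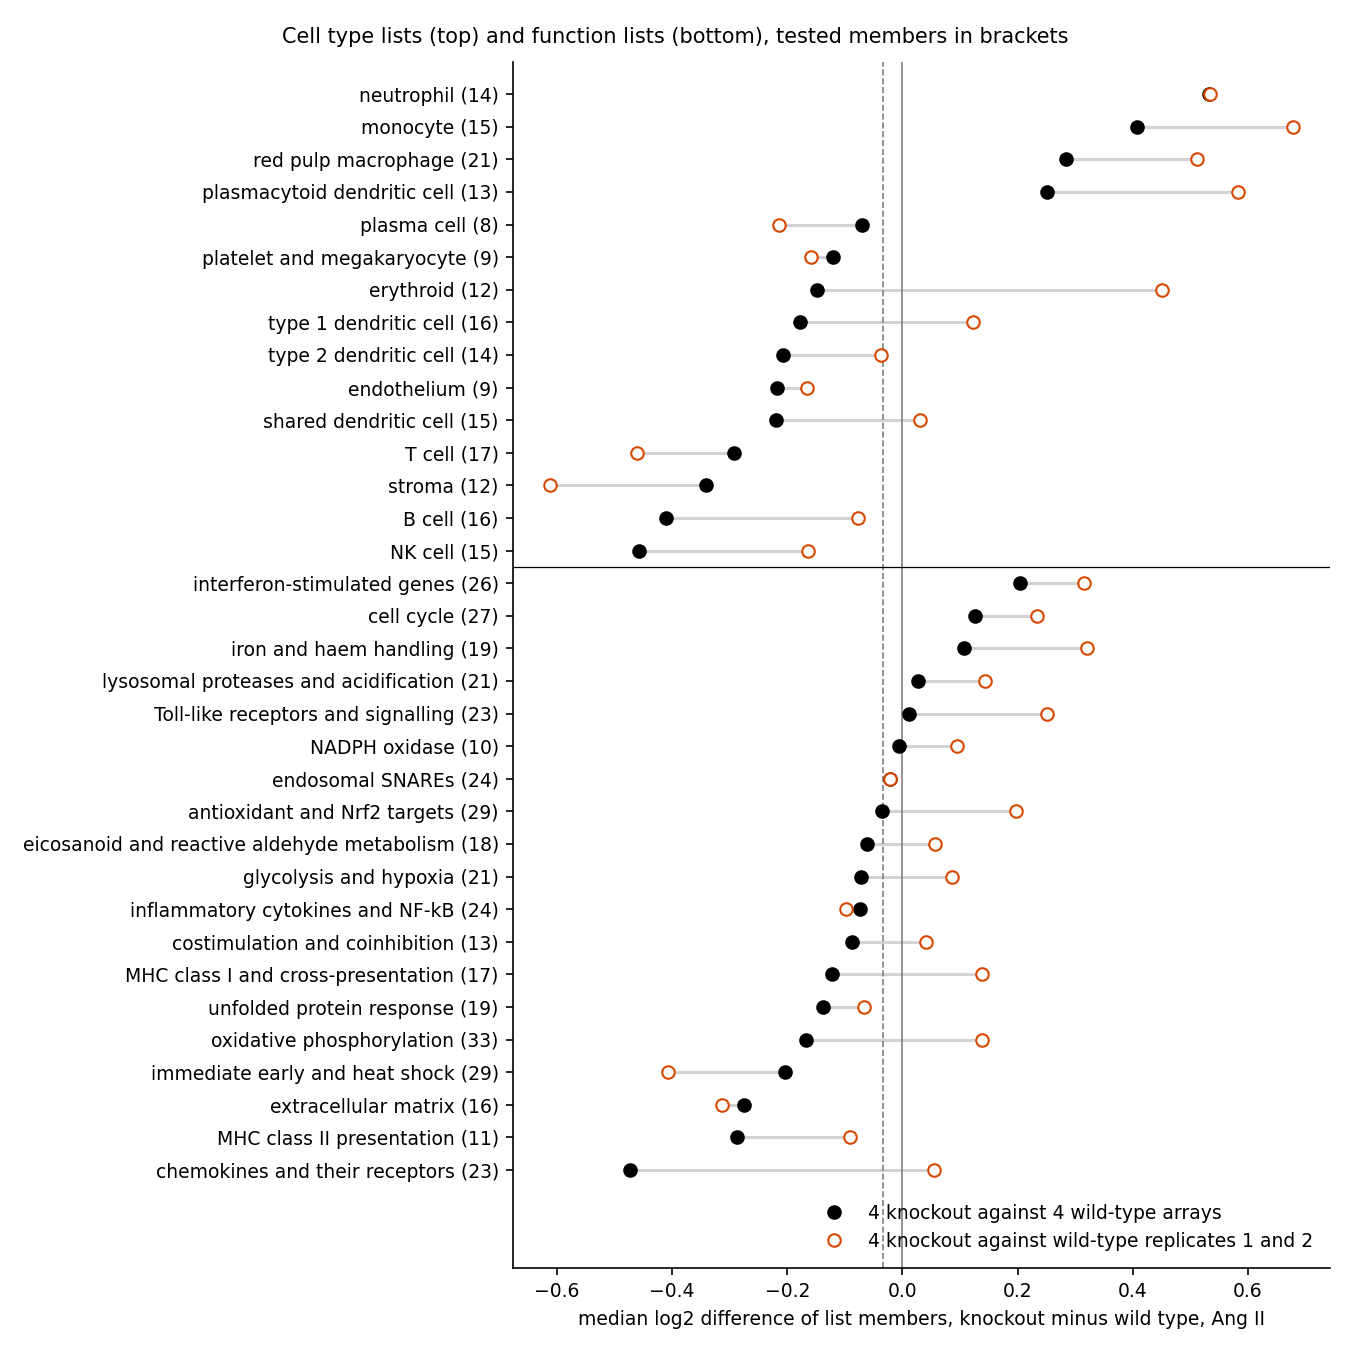
Median log2 difference, knockout minus wild type with Ang II (horizontal axis), of the tested members of each gene list with 5 or more; filled points use all 8 arrays and open points the 4 knockout arrays and wild-type replicates 1 and 2. The solid line marks 0 and the dashed line the median of all tested genes (-0.03); chemokines move from -0.47 to 0.06, while stroma and T cell medians lie below 0 for both.

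No marker of other leukocytes was called. Monocyte markers had a median of 0.41 over 15 (0.68 within the set), with 5 of unadjusted p below 0.05, all higher: Ace, Fcgr4 (1.18), Clec4a3 (1.09), Cx3cr1 (0.53) and Ifitm3 (0.53). Red pulp macrophage markers had a median of 0.28 over 21 (0.51 within the set), beside -0.37 with vehicle. Mertk, a receptor for dying cells, measured 6.38, 7.27, 7.01 and 7.90 in the knockout and 6.10, 5.84, 5.60 and 6.62 in wild type, overlapping in 1 array of each group, with a difference of 1.10 (adjusted p = 0.547). The integrin Itgad differed by 0.77, Cd5l by 0.90 and the scavenger receptor Marco by -0.76. Neutrophil markers had a median of 0.53 over 14 (0.53 within the set), led by lactoferrin (Ltf, 1.44), Ltb4r1 (0.46) and Cd177 (0.51). These medians rested in part on knockout replicate 4, without which they were 0.20 for monocytes, 0.08 for red pulp macrophages and 0.08 for neutrophils. Its mean neutrophil marker level was 8.20, against 6.21 to 7.08 in the other knockout arrays and 5.92 to 7.33 in wild type.

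T cell markers had 16 of 17 differences below 0, 6 with an unadjusted p below 0.05, and a median of -0.29 (-0.46 within the set). Ctla4, the inhibitory receptor, differed by -1.37, the adaptor Lat by -0.64, Cd28 by -0.80 and Cd3d by -0.79. Mean T cell marker levels were 5.32 to 5.82 in the knockout and 5.96 to 6.20 in wild type, without overlap. The same was seen in the matrix, chemokine and unfolded protein response lists, and in the SNARE list, which includes Stx8. Without knockout replicate 4 the T cell median was -0.22 with 1 gene of unadjusted p below 0.05. All 15 NK cell markers tested were below 0, 4 with an unadjusted p below 0.05, at a median of -0.46 (-0.16 within the set, with 11 below 0). Nkg7, a granule protein of NK and cytotoxic T cells, measured 7.42, 7.44, 7.38 and 6.80 in the knockout and 7.85, 8.04, 9.14 and 8.62 in wild type, without overlap (difference -1.15, adjusted p = 0.420). Xcl1, the ligand of Xcr1, differed by -1.08, Ccl5 by -0.84 and granzyme B (Gzmb) by -0.65. B cell markers had a median of -0.41 over 16, with the tetraspanin Cd37 at -0.44 and the complement receptor Cr2 at -0.89. That median was -0.08 within the set and -0.14 without knockout replicate 4, with 14, 9 and 10 of 16 below 0 in turn. Plasma cell markers had a median of -0.07 over 8 (-0.21 within the set), with Prdm1 at 0.28.

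The remaining cell lists were small or uneven. Erythroid markers had 5 differences above 0 and 7 below, at a median of -0.15. It was 0.45 within the set (9 of 12 above 0) and -0.85 without knockout replicate 4 (12 of 12 below), whose mean level of 7.55 stood above the 4.88 to 6.56 of the other 7 arrays; Rhd differed by -0.75, Alas2 by -0.61 and Car1 by -0.80. Platelet markers had a median of -0.12 over 9 (-0.16 within the set, -0.30 without knockout replicate 4), with the chemokine Ppbp at -1.37 and, within the set, -1.92 (adjusted p = 0.00425). Mast cell and basophil markers had 3 of 12 genes tested, Kit (-0.22), Gata2 (0.16) and Hdc (-0.15). Endothelial markers had a median of -0.22 over 9 (-0.17 within the set), 8 of them below 0, with the coreceptor Eng at -0.66 and Fabp4 at 1.45.

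With vehicle, the same genotype comparison called 1 of 10452 genes (0.00957%), Stx8. The vehicle arrays are separate from the Ang II arrays, although all 3 knockout arrays again lay in 1 array set and the wild-type arrays in both. Across genes, which are not independent replicates, the differences with Ang II and with vehicle had a Pearson correlation of 0.45 and a Spearman correlation of 0.36, and 0.36 and 0.29 within the set. Of 714 genes with an unadjusted p below 0.05 with Ang II, 572 (80.1%) had the same sign with vehicle, beside 62.0% of all tested genes. With wild-type vehicle replicate 2 left out, the vehicle comparison called 68 genes, 66 of them lower, and the Ang II comparison 13 (4 higher and 9 lower); 12 of these 13 had the same sign with vehicle.

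The interaction between genotype and Ang II, which tests the difference between both genotype effects, called 0 of 10452 genes (0%) in limma, with 257 at an unadjusted p below 0.05. None was called without wild-type vehicle replicate 2 either, where 544 had an unadjusted p below 0.05. No gene's genotype effect was thus shown to differ by treatment, and the intervals give the sizes that remain possible. For Cybb the interaction was -0.14 (95% interval -1.30 to 1.03), for Coch -0.55 (-1.73 to 0.62) and for Clu -0.37 (-1.09 to 0.35). The 257 were a smaller share of the tested genes than the 0.05 that such a threshold gives by chance. That was not so for the 544 without wild-type vehicle replicate 2, so the low share depended on that array. Among the 257 were Fabp4, at 1.41 (0.51 to 2.31), and Cd300c, at 1.14 (0.38 to 1.90). Both were named after their Ang II values were seen, and the intervals are not adjusted for the number of genes tested. Fabp4 with vehicle was 5.24 to 6.47 in the knockout and 5.42 to 6.32 in wild type, overlapping ranges with a difference of 0.04.

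**Figure D5:**
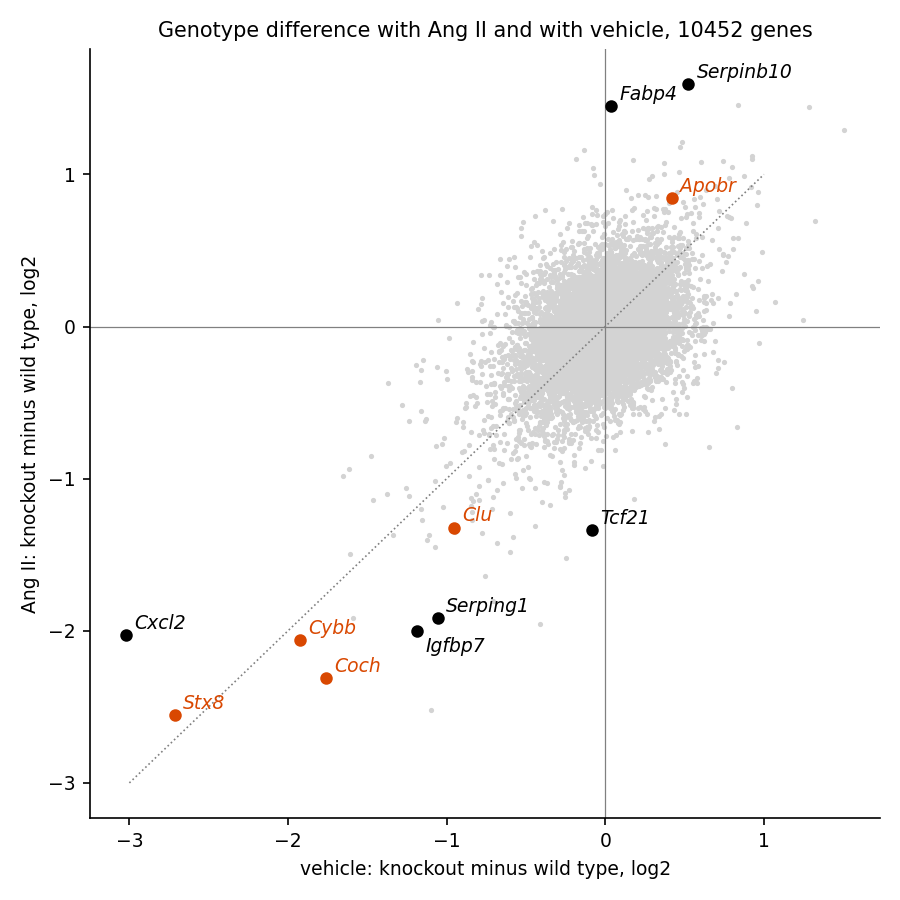
Log2 difference between knockout and wild type with vehicle (horizontal axis) and with Ang II (vertical axis) for each of 10452 tested genes. Orange points are the 5 called genes, black points 6 others named in the text, and the dotted line marks equal differences; Stx8 (-2.71, -2.55), Cybb (-1.92, -2.06) and Coch (-1.76, -2.31) lie near it, and Fabp4 (0.04, 1.45) lies above it.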

How the data were processed

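Expression was measured on 28 Affymetrix mouse arrays. The deposited values are log2 signals, made by the authors with Partek 6.6 and RMA per the submitters' processing notes; the RMA version and background settings are not given in the sources used here. They ran from 0.90 to 14.34 over 35556 probe sets and were not transformed further. A difference of 1 is 2-fold. RMA narrows differences of dim probe sets, and the number of arrays limits precision.

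Of the probe sets, 21789 carried 1 symbol in GEO's platform annotation, 1621 several and 12146 none; 21698 of the first matched RefSeq genes (GRCm38.p6, used for names and neighbours). For 999 genes with several probe sets, the probe set of highest mean across the 28 arrays was used. Limma 3.58.1 in R 4.3.3 fitted means of 6 groups over the 28 arrays, tested on simulated data first. Samples called biological replicates in the labels were taken as such. Knockout and wild-type replicate numbers were not taken as pairs of arrays.

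Named were the called genes, all oxidase and SNARE genes with a value, up to 4 genes of smallest p in each list, the neighbours of Cybb and Stx8, and a short list of inflammatory and Ang II genes. Members and lists were chosen with earlier results of these data known. Alternatives covered filters, scaling, fit, array set, replicate block and single arrays.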

Additional observations from a re-analysis of the deposited data

Results flagged for a closer look

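Over 65 groups of 4 to 7 arrays, in 30 genes given by array, 8 had an array far from the others; chance gives about 1 in 20 groups. Wild-type Ang II replicate 2 was low for Stx8 (5.56, nearest 6.04) and for Clec10a (2.16, nearest 3.49). Wild-type Ang II replicate 3 was low for Tnfaip3 (6.54, nearest 8.23), an NF-kB inhibitor, and for Atf3 (5.78, nearest 9.23), a stress-induced transcription factor. Wild-type Ang II replicate 4 was low for Bgn (5.40, nearest 6.40). Knockout Ang II replicate 4 was high for Ddit4 (9.33, nearest 9.16), within a narrow group, and low for Nkg7 (6.80, nearest 7.38). The array labelled wild-type vehicle replicate 2 was low for Cybb (6.34, nearest 8.51).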

How the results depend on the processing

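The 5 genes called with Ang II became 3 with array weights, 14 in a fit of the 8 compared arrays alone, 13 under quantile normalization, 40 with the array set as a block, 16 within the array set of the knockout arrays, 13 without wild-type vehicle replicate 2, and 37 within that set and without that array, a setting chosen after seeing the data. Leaving out each of the 8 arrays gave 1 to 3. Replicate numbers 1 to 4 were not taken as a pairing. Correlations of same-numbered deviations ran from 0.04 to 0.15 and those of other pairs from -0.16 to 0.15, too few to settle whether arrays were paired. With the replicate block 3 genes were called. The 1 gene called with vehicle became 0 above a log2 of 7 (201 at an unadjusted p below 0.05 in limma, since Stx8 lies below that level), 1437 with array weights, 2 under quantile normalization, 144 with the set as a block, 6 within the set, 68 without wild-type vehicle replicate 2 and 26 with both. The interaction called 0 genes in limma under each alternative in which it was fitted, with 40 to 688 at an unadjusted p below 0.05. The cause of these changes was not tested.

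Cybb stayed lower in each alternative. Its call was lost with arrays set to a common median (-2.06, adjusted p = 0.0886), with the replicate block (-2.06, 0.0844), with the set as a block (-1.48, 0.0502), within the set (-1.71, 0.556, but 0.00300 without wild-type vehicle replicate 2 as well), against the median difference (-2.03, 0.0567) and without any 1 of the 8 arrays (-2.22 to -1.90). The fits in which the Cybb call was lost all kept wild-type vehicle replicate 2. In the fit of the 8 compared arrays alone, Cybb was called (limma adjusted p = 0.00175). Stx8 was called in each of its 20 alternatives. Outside the fits without 1 array, Coch was called in 12 of 13, losing its call with array weights, Clu in 11, losing it with array weights and the replicate block, and Apobr in 9, losing it with array weights, in the fit of 8 arrays and in both fits within the set. No called gene changed sign under an alternative. Of the 187 uncalled genes named, 70 of 3851 values under an alternative passed the test and 67 moved by more than the spread between arrays. Under quantile normalization 4 of 36 list medians changed sign, those of the NADPH oxidase, antioxidant, eicosanoid and SNARE lists, each within 0.062 of 0; with a common median none did. No detection calls were used here, so genes near a log2 of 5 are the least certain.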
